A study of Ovis aries with 8 samples.

Results

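Glucocorticoid and thyroid hormone genes were read out in pancreatic islets of near-term sheep fetuses. The set holds the receptors of both hormones, the enzymes that activate or inactivate them and classic glucocorticoid targets. Of its 9 symbols, 6 name a row of the 25000-row table exactly, and all 6 passed the abundance filter (a mean of at least 1 FPKM over the 8 animals) with which 13252 genes were tested. They are NR3C1, HSD11B1, FKBP5, TSC22D3, THRA and DIO1. HSD11B2, PER1 and THRB were not analysed here because no row carries exactly their symbol.

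The study compared 4 fetuses given norepinephrine into a vein for 7 days with 4 control fetuses given the diluent, saline with ascorbic acid. The rate was 1 µg/min on day 1, 2 µg/min on days 2 to 4 and 4 µg/min on days 5 to 7. All were single fetuses of Columbia-Rambouillet crossbred ewes, aged 137 to 139 days of gestation with norepinephrine and 139 to 140 days in controls. The labels give each fetus its own number and weight, so the 4 replicates of a group are separate animals. Each group held 3 males and 1 female (control 2 and norepinephrine 3). Values are FPKM: the fragments of a gene, divided by the transcript's length and by the mapped fragments of that library. Their sum still differed between libraries, and the main comparison did not set it equal. Differences are log2(FPKM + 1), norepinephrine minus control, tested with limma over all 13252 genes with Benjamini-Hochberg adjustment. Each ± is an SD over n = 4 animals.

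Cortisol acts through the glucocorticoid receptor, which NR3C1 encodes. The enzyme of HSD11B1 regenerates cortisol from inactive cortisone inside cells, and the enzyme of HSD11B2 does the reverse. Cortisol rises in the fetal circulation before birth and, in sheep, helps to set off labour and organ maturation. Thyroid hormone is secreted mainly as T4, and the selenium-containing deiodinases convert it to active T3 (DIO1, DIO2) or inactivate it (DIO3). T3 enters cells through membrane transporters and binds receptors encoded by THRA and THRB.

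The labelled tissue was checked on its markers: 13 of 14 islet endocrine markers are listed under their symbols, and all 13 were above 0 in every animal, with a summed level of 5823 to 10013 FPKM in controls and 7916 to 13988 with norepinephrine. Other cells were also present. Acinar markers (9 of 13 listed, PNLIP and PTF1A at 0 in some animals) summed to 120.0 to 165.2 FPKM in controls and 122.3 to 1006 with norepinephrine, and mesenchymal markers (6 of 8 listed, none at 0) to 435.8 to 710.5 and 303.5 to 1772. Adrenal steroid and catecholamine markers (6 of 7 listed) were near 0 for CYP11A1, CYP17A1, DBH and PNMT (mean under 1 FPKM). The other 2 were above 0 in every animal. This list summed to 7.05 to 7.96 FPKM in controls and 8.68 to 16.97 with norepinephrine, so every norepinephrine animal lay above every control. Animal numbers begin with 09 or 10, a difference that the labels leave unexplained. The summed FPKM of the library was higher in every 09 animal than in any 10 animal. The scale of the libraries therefore differed along with the number groups, and results with equal library totals are given at the end. Between the 09 and 10 animals 2187 genes (16.5%) differed at a limma adjusted p under 0.05 in a model that also held treatment, and 18 did without control 2. Of the 6 members, 0 did (lowest adjusted p = 0.169, THRA). Since 3 of 4 norepinephrine animals are numbered 09 and 3 of 4 controls 10, each member is also given within the number groups. The only control numbered 09 is control 2, a female, and the only norepinephrine animal numbered 10 is norepinephrine 2. Controls 1 to 4 were 140, 139, 140 and 140 days old and norepinephrine animals 1 to 4 were 138, 139, 139 and 137. Only control 2 shared an age with norepinephrine animals, so models with both can hardly tell age and treatment apart.

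In the comparison of treatments 0 of the 6 members passed at an adjusted p under 0.05, against 0% of all genes. At an unadjusted p under 0.05 there was 1 member, THRA, against 7.36% of all genes (3.61% higher with norepinephrine). The groups did not overlap in that same 1 member, against 4.23% of all genes (1.88% higher with norepinephrine). In tissue RNA, fewer cells of a type and less RNA per cell cannot be told apart.

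**Figure D1:**
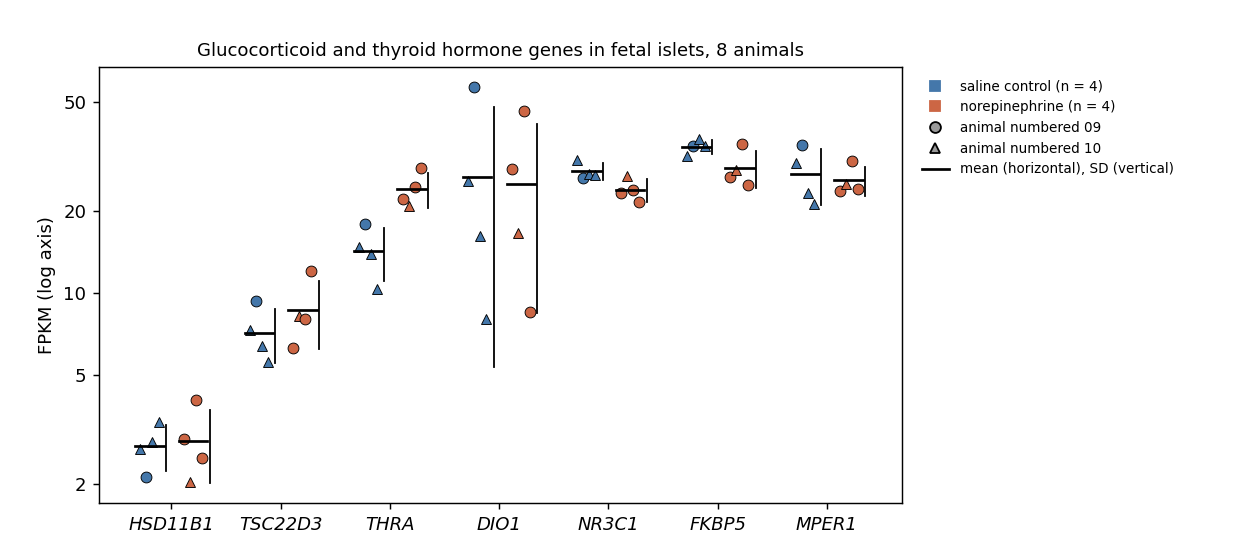
FPKM on a log axis for the 6 members and for the row named MPER1, with 1 point per animal (blue, saline control; orange, norepinephrine; circles, animals numbered 09; triangles, 10); horizontal bars are means and vertical bars SDs over 4 animals. THRA is the member whose groups do not overlap (20.8 to 28.8 against 10.3 to 17.9), and DIO1 has the widest spread between animals (8.06 to 57.0).

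By level, FKBP5 stood highest and HSD11B1 lowest of the 6, on a per-length scale. Means over the 8 animals were 31.5 FPKM for FKBP5, 25.9 for NR3C1, 25.9 for DIO1, 19.1 for THRA, 7.91 for TSC22D3 and 2.81 for HSD11B1. FKBP5 was above NR3C1 in 8 of 8 animals although their ranges over animals overlap. NR3C1, DIO1 and THRA were not ordered beyond their spread: NR3C1 was above DIO1 in 5 of 8 animals, and DIO1 above THRA in 5 of 8. THRA was above TSC22D3, and TSC22D3 above HSD11B1, in 8 of 8, the latter with no overlap of ranges.

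NR3C1, the glucocorticoid receptor (chromosome 5, 51733916 to 51850972 on Oar_v3.1), was the steadiest member. It stood at 30.7, 26.4, 27.4 and 27.2 FPKM in controls 1 to 4 and at 23.2, 26.8, 23.9 and 21.5 with norepinephrine. Control 2 lay just under norepinephrine 2, and all other controls lay above every norepinephrine animal. Control animals averaged 27.9 ± 1.91 and norepinephrine animals 23.9 ± 2.22, which makes a log2 difference of -0.22 (95% interval -0.48 to 0.041, limma adjusted p = 0.696), and an exact two-sided permutation test over the 8 animals gave p = 0.0571. Within the 09 animals the log2 difference was -0.20, within the 10 animals -0.079, and with gestational age in the model -0.055. Its SD over the 8 animals was higher than that of 11.1% of the genes tested.

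HSD11B1, the cortisol-regenerating enzyme (chromosome 12, 71703835 to 71763644), was listed at low level in every animal. Controls 1 to 4 stood at 2.69, 2.11, 2.84 and 3.37 FPKM, and norepinephrine animals 1 to 4 at 2.91, 2.03, 4.04 and 2.49. The groups overlap over most of their range. The log2 difference was 0.028 (95% interval -0.43 to 0.49, limma adjusted p = 0.977; exact permutation p = 0.886), with 0.40 among the 09 animals and -0.39 among the 10 animals, and its sign turned with equal library totals. Relative to the median of all genes it stood at 0.025 with equal totals and at 0.011 in the main comparison. H6PD, which supplies the cofactor that this enzyme needs, averaged 24.1 ± 5.58 FPKM in controls against 16.6 ± 4.29 after norepinephrine (log2 -0.51, SE 0.23, unadjusted p = 0.0499, limma adjusted p = 0.666). The H6PD difference was -0.23 with the number prefix as a covariate and turned to 0.14 with gestational age. H6PD was named after its values were seen, and 3.74% of all genes were lower with norepinephrine at an unadjusted p under 0.05.

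The classic glucocorticoid targets did not move together. FKBP5 encodes a co-chaperone that binds the receptor complex and lowers its affinity for hormone, and glucocorticoids induce it (chromosome 20, 9692040 to 9766541). It stood at 31.8, 34.7, 36.6 and 34.5 FPKM in controls 1 to 4 and at 26.7, 28.3, 35.1 and 24.8 with norepinephrine. Norepinephrine 3 lay among the controls, and the other norepinephrine animals lay below all of them. Means were 28.7 ± 4.47 and 34.4 ± 1.95, norepinephrine before control, a log2 difference of -0.26 (95% interval -0.56 to 0.033, limma adjusted p = 0.681; exact permutation p = 0.114). It was -0.27 within each number group and -0.065 with gestational age in the model.

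TSC22D3 encodes GILZ, a leucine zipper protein that carries part of the anti-inflammatory response to glucocorticoids (chromosome X, 120480379 to 120545562). Controls 1 to 4 stood at 7.30, 9.31, 6.40 and 5.61 FPKM and norepinephrine animals 1 to 4 at 6.31, 8.25, 8.03 and 12.1. Norepinephrine 4 was the highest animal, and the remaining values interleave. Means were 8.66 ± 2.42 and 7.16 ± 1.59, a log2 difference of 0.23 (95% interval -0.25 to 0.71, limma adjusted p = 0.801; exact permutation p = 0.400). It was -0.12 among the 09 animals and 0.32 among the 10 animals, and -0.16 with gestational age in the model.

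A row named MPER1 lies on chromosome 11 (27338965 to 27348021) between HES7 and TMEM107, where RefSeq's assembly ARS-UI_Ramb_v3.0 has PER1, the clock gene that glucocorticoids induce. The name is not the exact symbol and the same locus carries a second row, known only by an Ensembl identifier, so it was not counted among the members. It stood at 29.9, 35.0, 23.2 and 21.2 FPKM in controls 1 to 4 and at 23.7, 25.1, 30.6 and 24.1 with norepinephrine. All norepinephrine values lie inside the control range, and the log2 difference was -0.055 (95% interval -0.45 to 0.34, limma adjusted p = 0.946; exact permutation p = 0.8286).

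**Figure D2:**
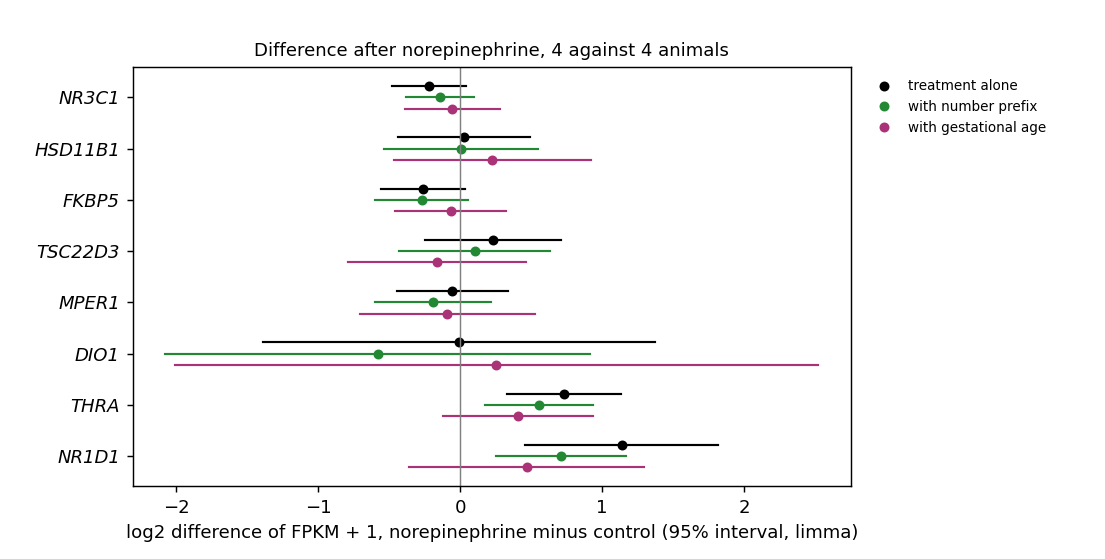
Log2 difference of FPKM + 1, norepinephrine minus control, for 6 members, MPER1 and NR1D1; points are limma estimates and lines 95% intervals, from the comparison of groups alone (black), with the number prefix as a covariate (green) and with gestational age (purple). The black and green intervals of THRA and NR1D1 lie above 0 and their purple intervals cross it, and every interval of the other 6 crosses 0.

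THRA, which encodes thyroid hormone receptor alpha, was higher in all norepinephrine animals than in any control. It is listed on chromosome 11, 39957731 to 39977351. Controls 1 to 4 stood at 14.8, 17.9, 13.9 and 10.3 FPKM and norepinephrine animals 1 to 4 at 22.1, 20.8, 24.4 and 28.8. Means were 24.0 ± 3.52 and 14.2 ± 3.13, a log2 difference of 0.73 (SE 0.18, 95% interval 0.33 to 1.14). The exact permutation test gave p = 0.0286, the smallest that 4 against 4 animals allow, without adjustment over the members. By limma the unadjusted p was 0.00253, rank 67 of 13252 genes, and the adjusted p was 0.495, so THRA did not pass over all genes.

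The THRA difference had the same sign within both number groups, 0.46 among the 09 animals (3 norepinephrine, 1 control) and 0.65 among the 10 animals (1 norepinephrine, 3 controls). With the prefix in the model it was 0.56 (unadjusted p = 0.00965, limma adjusted p = 0.347). With gestational age in the model it was 0.41 and its interval reached from -0.12 to 0.93 (unadjusted p = 0.112, limma adjusted p = 0.673). The acinar sum was 579.5, 122.3, 1006 and 354.2 FPKM in norepinephrine animals 1 to 4, and 8 of its 9 listed markers had a higher mean with norepinephrine. The mesenchymal sum was highest in norepinephrine 4 (1772 FPKM), which also had the highest THRA, and without that animal the THRA difference was 0.64. Norepinephrine 2 and 3 had the lowest mesenchymal sums (303.5 and 310.0 FPKM), with THRA above every control. Controls 3 and 4 had the highest sums among controls (710.5 and 707.8), with the lowest THRA. The islet endocrine sum was 8481, 10013, 5823 and 6222 FPKM in controls 1 to 4 and 9510, 10475, 7916 and 13988 with norepinephrine. Of its 13 listed markers, 12 had a higher mean with norepinephrine. This sum was highest in norepinephrine 4 and lowest in controls 3 and 4. Norepinephrine 3 lay below controls 1 and 2 in this sum, with THRA above every control. The part of these 3 marker lists in the THRA difference was not tested.

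The table gives THRA and NR1D1 the same locus. NR1D1, a nuclear receptor of the circadian clock, is transcribed from the opposite strand and its end overlaps a THRA transcript. The sources used here do not say if the libraries kept strand information. Reads of the overlap therefore cannot be told apart, and both values are uncertain. NR1D1 stood at 4.62, 7.09, 2.95 and 3.00 FPKM in controls 1 to 4 and at 9.98, 6.31, 12.1 and 14.97 with norepinephrine. Norepinephrine 2 lay below control 2, and the other norepinephrine animals lay above all controls. The log2 difference was 1.14 (SE 0.30, limma adjusted p = 0.523; exact permutation p = 0.0571) and, once the number prefix was a covariate, 0.71 (adjusted p = 0.334). It was 0.47 with gestational age in the model (adjusted p = 0.744). NR1D1 also differed between the number groups (log2 -0.86 in 10 against 09, limma adjusted p = 0.0286).

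DIO1, the deiodinase that activates T4 in liver, kidney and thyroid (chromosome 1, 28164440 to 28183070), varied widely between the animals of each group. Controls 1 to 4 stood at 25.7, 57.0, 16.2 and 8.06 FPKM and norepinephrine animals 1 to 4 at 28.4, 16.6, 46.7 and 8.504. Control 2 and norepinephrine 3 were the highest of their groups, and control 4 and norepinephrine 4 the lowest. The highest animal had 7.07 times the FPKM of the lowest, and the SD of log2(FPKM + 1) was higher than that of 97.5% of the genes tested. Control animals averaged 26.7 ± 21.4 and norepinephrine animals 25.0 ± 16.6, with a log2 difference of -0.010 with a wide 95% interval, -1.39 to 1.37 (limma adjusted p = 0.997; exact permutation p = 0.971). This interval does not exclude a change of 2-fold in either direction on the log2(FPKM + 1) scale. Within the 09 animals the log2 difference was -1.29 and within the 10 animals 0.13, of opposite sign. The first rests on 1 control, control 2, which had the highest DIO1, and the second on 1 norepinephrine animal, norepinephrine 2. The treatment difference over all animals was -0.58 with the number prefix as a covariate, and it was 0.45 without control 2.

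Control 2 and norepinephrine 3 are the female fetuses, and both are numbered 09. A comparison of sexes was therefore added after the values were seen, so its p-values are no independent support. DIO1 averaged 51.8 FPKM in the 2 females and 17.3 in the 6 males (range 8.06 to 28.4). With treatment in the model the difference was 1.67 log2 units, female minus male (SE 0.48, unadjusted p = 0.00798, limma adjusted p = 0.185). With the prefix also in the model it was 1.64 (unadjusted p = 0.04999, adjusted p = 0.375). Both females lay above all 6 males in 9.77% of the genes tested. At an adjusted p under 0.05, 6 genes differed between the sexes (0.0453%), and 0 members were among them.

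KLF9 and HR, named after their values were seen, had their highest values in the same pair of animals. KLF9 is a transcription factor that T3 and glucocorticoids both induce, and HR encodes the corepressor hairless, a T3 target. KLF9 stood at 22.7 FPKM in control 2 and 14.4 in norepinephrine 3, and at 6.03 to 12.3 in the 6 males. HR stood at 19.0 and 15.1 in the same females and at 5.99 to 8.49 in the males. In none of BCL3, UCP2, FASN, ME1 and ATP2A2, the other tested thyroid hormone targets named here, did both females lie above all 6 males. Female and male means were 35.3 and 31.2 FPKM for BCL3, 180.8 and 151.0 for UCP2, and 39.1 and 39.5 for FASN. They were 49.1 and 50.2 for ME1, and 87.3 and 99.9 for ATP2A2. Both females did lie above all 6 males in the glucocorticoid targets NFKBIA (136.9 and 194.5 FPKM, males at most 112.9) and DDIT4 (60.8 and 62.9, at most 57.9). The same held for the row MPER1 (30.6 and 35.0, at most 29.9), but not for CEBPB or ANGPTL4. For NFKBIA the sex difference was 0.93 log2 units (SE 0.23, limma adjusted p = 0.163). The sex difference was 0.98 log2 units for KLF9 (SE 0.26, limma adjusted p = 0.174) and 1.18 for HR (SE 0.15, limma adjusted p = 0.0645). With the prefix also in the model the limma adjusted p was 0.264 for KLF9 and 0.165 for HR. Over 15 alternatives the adjusted p of HR ran from 0.0471, without norepinephrine 4, to 0.514. Neither passed the test for treatment (log2 -0.29, SE 0.36, and -0.20, SE 0.36). The acinar sum was 165.2 FPKM in control 2 and 1006 in norepinephrine 3, the highest of each group. Its part in these values was not tested, and sex and the other properties of 2 animals cannot be told apart.

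**Figure D3:**
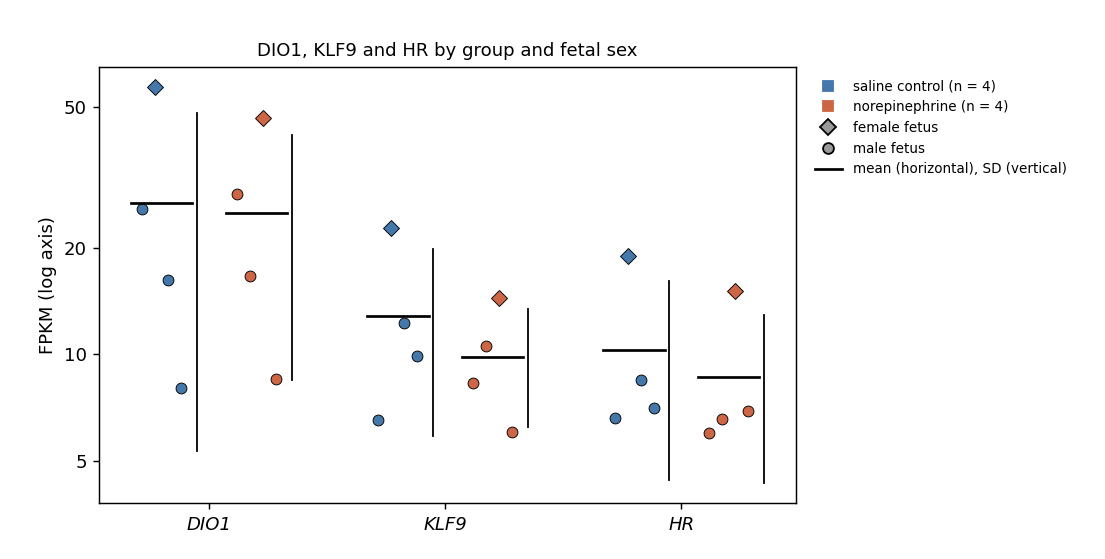
FPKM on a log axis of DIO1, KLF9 and HR, with 1 point per animal (blue, saline control; orange, norepinephrine; diamonds, female; circles, male); horizontal bars are means and vertical bars SDs over 4 animals. The 2 diamonds of each gene lie above all 6 circles, at 46.7 and 57.0 FPKM for DIO1.

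The other genes of both pathways were taken as 4 lists. The 19 tested glucocorticoid targets (of 28 in the list) had 8 means above and 11 below control (52.6% of all genes tested were above), and their median was -0.049 on the log2 scale beside 0.017 over all genes. That median was -0.16 with the number prefix as a covariate and ran from -0.074 to 0.061 when animals were left out in turn. At an adjusted p under 0.05 none passed (0 of 19), and 0 had an unadjusted p under 0.05. NFKBIA, the inhibitor of NF-kappa-B that glucocorticoids induce, averaged 118.1 ± 53.1 FPKM in controls against 95.4 ± 34.4 after norepinephrine. For ANGPTL4, a secreted lipase inhibitor, the same means were 65.1 ± 30.3 and 99.7 ± 105.5, and the norepinephrine mean rests on norepinephrine 4 at 253.8. CEBPB and DDIT4 differed by less than their spread (CEBPB, 77.5 ± 13.6 in controls and 75.0 ± 14.1 after norepinephrine; DDIT4, 49.1 ± 12.6 and 52.8 ± 10.4).

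In this list the groups did not overlap in 1 of 19 genes (4.23% of all genes, 1.88% higher with norepinephrine), KLF15, a glucocorticoid-induced transcription factor of amino acid and lipid metabolism, named after its values were seen. It stood at 1.30, 1.48, 1.11 and 1.47 FPKM in controls 1 to 4 and at 1.72, 1.98, 1.95 and 2.67 with norepinephrine. The log2 difference was 0.39 (SE 0.18, unadjusted p = 0.0511, limma adjusted p = 0.666), near the abundance filter. TAT and G6PC, liver enzymes that glucocorticoids induce, were below the filter, and G6PC is listed at 0 in all 8 animals.

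Genes of the receptor complex and of hormone supply showed no shared direction. Of 12 tested (of 16), 5 had higher and 7 lower means, with a median of -0.036 and 0 past the adjusted threshold. At an unadjusted p under 0.05 there was 1, H6PD, lower with norepinephrine (7.36% of all genes, 3.74% in this direction). The median was 0.077 with the number prefix and 0.12 with gestational age in the model. HSP90AB1, the chaperone that holds the unliganded receptor, averaged 1464 ± 111.7 FPKM in controls against 1680.1 ± 187.5 after norepinephrine (log2 0.19, SE 0.17). In the same order of groups HSPA8 (365.1 ± 85.6 and 343.5 ± 34.3), the p23 co-chaperone gene PTGES3 (287.8 ± 21.1 and 315.5 ± 31.8) and FKBP4 (102.6 ± 14.3 and 124.2 ± 31.5), which favours receptor activity where FKBP5 restrains it, did not pass either. FKBP4 was higher with norepinephrine by 0.25 and FKBP5 lower by 0.26 on the log2 scale, both with intervals that include 0. The FKBP4 difference turned to -0.078 with gestational age in the model, and its norepinephrine mean rests on norepinephrine 4 at 170.4 FPKM (the other 3 stood at 100.4 to 115.9, and controls at 85.2 to 118.9). The mineralocorticoid receptor gene NR3C2 was not analysed here.

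Among 17 tested genes of thyroid hormone transport, conversion and receptor partners (of 20), 10 had higher and 7 lower means, with a median of 0.017 (-0.033 with gestational age in the model, -0.13 with equal library totals) and 0 past the adjusted threshold. At an unadjusted p under 0.05 there was 1, SLC7A8, lower with norepinephrine (3.74% of all genes), and in it the groups did not overlap (2.35% of all genes in this direction).

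SLC7A8, the amino acid transporter LAT2 that also carries T3, was lower in every norepinephrine animal than in any control. Controls 1 to 4 stood at 81.6, 47.0, 61.3 and 56.5 FPKM and norepinephrine animals 1 to 4 at 36.5, 44.3, 29.1 and 40.8. The log2 difference was -0.68 (SE 0.19, unadjusted p = 0.00578, limma adjusted p = 0.523), with -0.41 in 09 and -0.56 in 10. It was -0.48 with the prefix and -0.63 with gestational age in the model (limma adjusted p = 0.389 and 0.642). The acinar marker sum, given beside THRA, was highest in norepinephrine 3 and in control 2, the animals with the lowest SLC7A8 of their groups, and lowest among norepinephrine animals in norepinephrine 2, which had the highest. The order differed among the other controls: control 1 had the highest SLC7A8 (81.6 FPKM) at a sum of 148.0, above controls 3 and 4 (120.0 and 131.2). Norepinephrine 2 had a sum of 122.3, inside the control range, and its SLC7A8 lay below every control. The part of these markers in the SLC7A8 difference was not tested. Its relative SLC7A5 (LAT1) averaged 41.1 ± 4.28 FPKM in controls against 54.5 ± 13.6 after norepinephrine, and SLC3A2, the partner chain of both, 188.3 ± 48.6 against 222.9 ± 56.0. Neither passed (log2 0.37, SE 0.19, and 0.24, SE 0.23). With the number prefix as a covariate SLC7A5 stood at 0.14 and SLC3A2 turned to -0.10, and with gestational age they stood at 0.059 and -0.31. TTR, the carrier protein transthyretin that islets also make, averaged 221.4 ± 120.1 in controls against 319.7 ± 193.8.

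**Figure D4:**
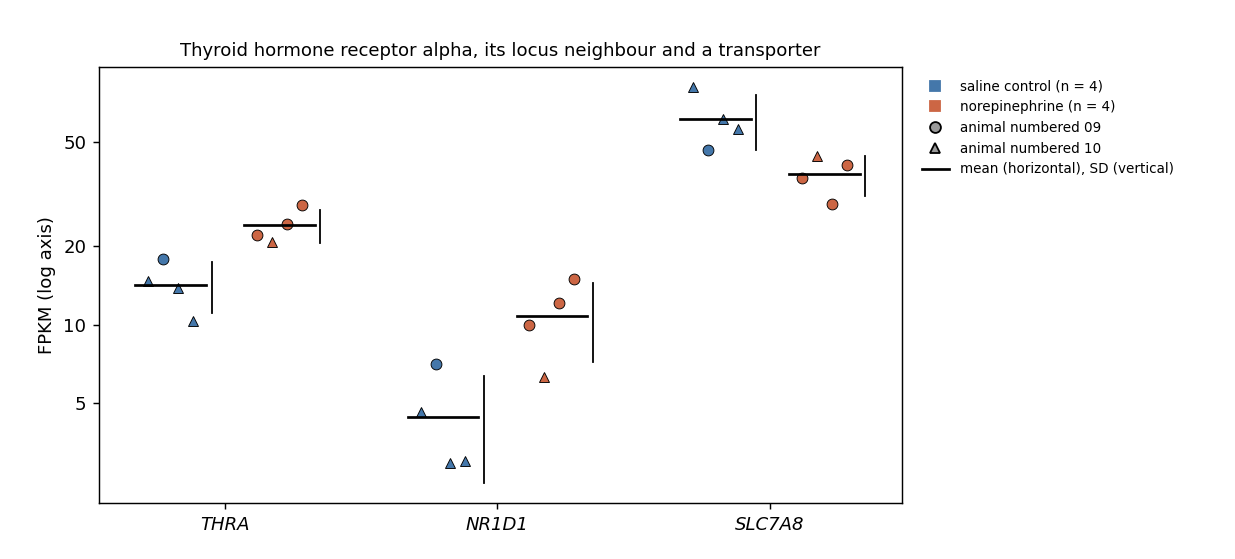
FPKM on a log axis of THRA, of NR1D1 at the same locus and of the transporter gene SLC7A8, with 1 point per animal (blue, saline control; orange, norepinephrine; circles, animals numbered 09; triangles, 10); horizontal bars are means and vertical bars SDs over 4 animals. The groups do not overlap for THRA and SLC7A8, and for NR1D1 norepinephrine 2 (6.31) lies below control 2 (7.09).

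The other deiodinases were low. DIO3, the inactivating enzyme of fetal tissues, stood at 0.435, 3.22, 1.32 and 0.601 FPKM in controls 1 to 4 and at 0.662, 0.864, 0.602 and 2.105 with norepinephrine (log2 -0.14, SE 0.37). DIO2 was below the abundance filter: controls lay between 0.162 and 0.554 FPKM, norepinephrine 1 at 0.124, and the other 3 norepinephrine animals are listed at 0. Such a 0 can be a failed estimate, and no fold was computed.

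Thyroid hormone targets had 3 higher and 6 lower means among 9 tested (of 13), with a median of -0.14 and 0 past the adjusted threshold. The median was -0.031 with the number prefix as a covariate and ran from -0.19 to 0.015 when animals were left out in turn. BCL3, a T3-induced partner of NF-kappa-B, was the 1 gene of 9 with an unadjusted p under 0.05 (7.36% of all genes, 3.61% higher with norepinephrine). It was also the 1 gene with groups that did not overlap (4.23% and 1.88%), and was named after its values were seen. Controls 1 to 4 stood at 34.6, 32.5, 18.7 and 23.0 FPKM and norepinephrine animals 1 to 4 at 40.3, 35.5, 38.1 and 35.2, so control 1 lay just under the lowest norepinephrine animal (log2 0.48, SE 0.19, unadjusted p = 0.0332, limma adjusted p = 0.643). With the number prefix as a covariate the BCL3 difference was 0.36 (unadjusted p = 0.123, limma adjusted p = 0.553). The most abundant targets did not pass: UCP2, a mitochondrial carrier of beta cells, averaged 179.5 ± 55.2 in controls against 137.5 ± 29.0 after norepinephrine, and the calcium pump gene ATP2A2 104.6 ± 14.8 against 88.9 ± 5.67. Malic enzyme ME1 averaged 52.4 ± 7.32 against 47.5 ± 6.86, and fatty acid synthase FASN 36.0 ± 4.84 against 42.8 ± 3.36. KLF9 belongs to both target lists.

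**Figure D5:**
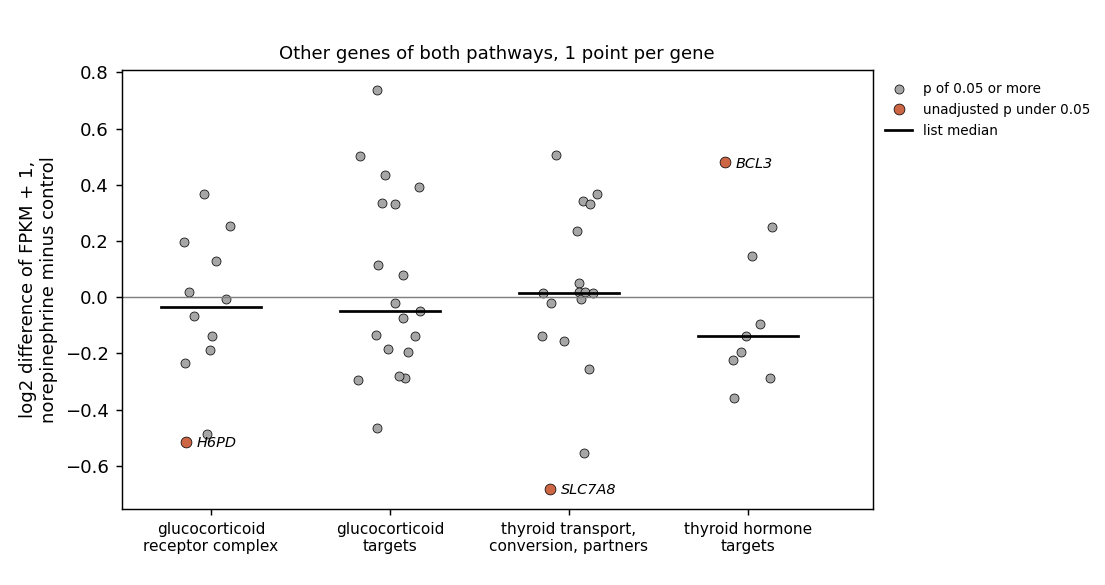
Log2 difference of FPKM + 1, norepinephrine minus control, for the tested genes of 4 lists of both pathways, with 1 point per gene; black bars are list medians, and orange points with names have an unadjusted limma p under 0.05. The named genes are H6PD, SLC7A8 and BCL3, and the list medians lie between -0.14 and 0.017.

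The rows most like each member were found by the root mean square difference of log2(FPKM + 1), centred on its mean over the 8 animals, among named rows at least 0.8 times as variable. Nearest to NR3C1 were CAMTA1 (0.0427) and METTL20 (0.0563), to FKBP5 MITF (0.0656) and DSTYK (0.0773), and to TSC22D3 PIGB (0.0718) and TCEA2 (0.0925). Nearest to THRA were RAC3 (0.138) and SH3YL1 (0.149), and to HSD11B1 TMEM255A (0.120) and NFIB (0.132). Nearest to DIO1, the most variable member, were IL10 (0.307) and QRFPR (0.423), which average 1.62 and 1.18 FPKM.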

How the data were processed

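Islets were hand-picked and their mRNA sequenced as paired reads, per the labels' protocols. The submitters' processing notes name TopHat2 2.0.1, Cufflinks 2.1.1, Cuffdiff and the build Oar_v3.1. On annotation, strand and filters the sources used here say nothing. The authors deposited 1 FPKM value per gene and animal, with no counts and 0 columns left out. Depth is known in relative terms at most: in low rows a single ratio to control 1 recurred in 20 to 116 rows for 5 animals, and in at most 6 rows for control 2 and norepinephrine 4. No counting interval was computed. Columns were matched to animals by number.

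From FPKM, log2(FPKM + 1) was computed, which understates changes of low genes. Tests were limma 3.58.1 in R 4.3.3 (intensity trend, two-sided, adjusted p threshold 0.05) and, for the 6 members and single genes, exact permutation tests. The planned adjustment of the permutation tests over the members is not given, so their p-values are unadjusted. Alternatives were another pseudocount, filter, scaling and trend, covariates, a replicate block and leaving out each animal. Start coordinates were raised by 1. RefSeq (ARS-UI_Ramb_v3.0) served for names (13316 rows matched) and neighbours. Merged rows were not used, and where a symbol had several rows, the most abundant was taken.

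The members and lists were chosen with earlier results of these data known. Named genes were the members, from each list the genes past the threshold (at most 5) or else the 4 with the highest mean, and the 2 nearest rows of each member. Sequences were not used here, and 1 gene of these lists is not reported here and was left out of their counts.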

Additional observations from a re-analysis of the deposited data

Results flagged for a closer look

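In HR, the hairless corepressor gene, 1 animal of each group stood far from the others. Among norepinephrine animals, norepinephrine 3 stood at 15.1 FPKM and the other 3 between 5.99 and 6.91, a gap of 0.899 of the range. Among controls, control 2 stood at 19.0 and the other 3 between 6.61 and 8.49, a gap of 0.848 of the range. For DIO2, norepinephrine 1 is listed at 0.124 FPKM and the other 3 norepinephrine animals at 0. These gaps exceed the 95% critical value of Dixon's test for 4 samples. For DIO2 the 3 tied values at 0 fix the gap at 1.0 of the range, so its flag says nothing about norepinephrine 1. HR was named after its values were seen, so its flags are no independent support. The test covered the 31 genes whose values by group are given above, in 62 groups, of which 3 were flagged. Chance flags about 1 in 20 groups.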

How the results depend on the processing

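Over all genes the treatment comparison called 0 genes by limma (975 at an unadjusted p under 0.05), 1 with equal library totals, 1 with the number prefix as a covariate and 0 to 2 when animals were left out in turn (2 without norepinephrine 1, 1 without norepinephrine 3). Members called stayed at 0 under every treatment alternative. THRA kept its direction in all 18 alternatives (log2 0.41 to 0.84, adjusted p 0.182 to 0.999), as did SLC7A8 (-0.83 to -0.48), NR1D1, NR3C1 and FKBP5. HSD11B1 turned to -0.098 with equal totals and ran from -0.11 to 0.14 when animals were left out. TSC22D3 turned to -0.16 with gestational age. DIO1, at -0.010, stood at -0.58 with the number prefix, turned to 0.011 with quantile normalization and 0.25 with gestational age, and ran from -0.44 to 0.45 when animals were left out. MPER1 ran from -0.16 to 0.069 in the same way. Equal totals shifted the median of all genes from 0.017 to -0.12. Relative to it, THRA stood at 0.71, HSD11B1 at 0.025 and NR3C1 at -0.25.

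The contrast of 10 against 09 called 2187 genes (803 higher, 1384 lower), 4363 with equal totals (4127 higher, 236 lower), 1294 with quantile normalization (829 higher, 465 lower) and 18 to 2272 when animals were left out. It called 915, 18, 859 and 1119 without controls 1 to 4 and 710 without norepinephrine 2. Equal totals shifted its all-gene median from -0.088 to 0.31. It called 1 member with equal totals, NR3C1 (log2 0.60, or 0.28 relative to that median, adjusted p = 0.00838), where HSD11B1 turned to 0.28, FKBP5 to 0.42, TSC22D3 to 0.14 and THRA to 0.076. Of these, HSD11B1, TSC22D3 and THRA lay below that median and FKBP5 above it. FKBP5, at -0.015, also turned to 0.093 with quantile normalization and 0.12 without the treatment term, and ran from -0.061 to 0.052 when animals were left out, and HSD11B1 from -0.43 to 0.35. The sex contrast called 6 genes, 12 with no filter, 1 at a mean of at least 5 FPKM and 4 to 19 when animals were left out (17 without control 2, 11 without norepinephrine 3 and 19 without norepinephrine 4).

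Replicate numbers belong to different animals. With a replicate block 0 genes and 0 members were called, and 646 genes had an unadjusted p under 0.05. Deviations of same-numbered animals correlated between -0.38 and 0.093, so the numbers do not pair them.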
